A study of Daphnia magna with 40 samples.

Results

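The 80 array probes described here were chosen because their mean signal in adult Daphnia magna was higher in each of 4 exposed groups than in the acetone carrier group. A probe's level is the log2 of its processed signal after subtracting the 75th percentile of its array, called the scaled log2 signal, so that a difference of 1 is a 2-fold difference. The scanner software marked 7110 of the 14338 probes (49.6%) as well above background on every one of the 16 exposed adult arrays. Among these, the 80 with the largest difference between the lowest of the 4 exposed group means and the acetone mean were taken, 1.13% of those that could be chosen. This difference, called the choice value, ran from 1.01 to 2.54 with a median of 1.22, against a median of -0.26 over the 7110 detected probes. A choice value above 0 was found in 2019 of the 7110, and of at least 1 in 83. All 4 exposed means lay at least 1 below the acetone mean in 12 probes. Because adult signals made the choice, every adult difference between exposed and acetone arrays is given as a description and without a test. The difference rested unequally on the 4 acetone arrays, so the probes are named by this rule and not as a response.

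Daphnia magna is a small freshwater crustacean that reproduces clonally and is widely used to assess chemicals in water. Fluoxetine and fluvoxamine are selective serotonin reuptake inhibitors, antidepressants that block the transporter taking serotonin back into nerve cells. Nonylphenol is a breakdown product of industrial surfactants known for effects on hormone systems. The probes carried IDs with no gene names: no ID (0 of 14338) was found in the gene table for assembly ASM2063170v1.1, so neither the genes nor their functions can be named here, nor could the labelled material (whole animals) be set against marker genes. For the same reason a gene list of any pathway had no measured member. The 80 IDs belonged to 80 different design names.

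The study asked whether serotonin reuptake inhibitors change gene activity in juveniles and adults. All animals were of a single clone (Clone F), so the results concern that genotype, and all 10 groups, 4 arrays each, received acetone at 0.1 mL/L as the carrier. The exposed groups received fluoxetine at 40 µg/L (FX40), fluvoxamine, spelled fluovoxamine in the labels, at 10 µg/L (FV10), or nonylphenol at 20 µg/L (NP20) or 60 µg/L (NP60), and the acetone group received the carrier alone. The series' design text instead names fluoxetine at 80 ppb and fluvoxamine at 30 ppb, a difference that could not be settled here. Adult exposures began with gravid females 8 to 9 days old and lasted 3 broods, 10 to 14 days, after which eggs were flushed out and the females frozen. Juveniles, called neonates in the sample titles, were under 1 day old at the start, were exposed for 3 days and were pooled in groups of 20 from separate vessels. How many females made an adult sample is not stated, and p-values from adults therefore reflect variation between samples that may be technical.

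The 4 adult acetone arrays, B, E, F and G, were unlike each other in technical measures that touch every adult comparison. The 75th percentile of the signal, a measure of brightness, ran from 138 to 485 on the 16 exposed adult arrays in intensity units, against 214 on acetone B, 76.9 on E, 214 on F and 218 on G. Array E was thus the dimmest adult array. Array G carried 1379 spots that the scanner software marked as outliers, 9.07% of its non-control spots, against 5 to 219 on the other 39 arrays. Without marked spots the 75th percentile was 125 on G, against 213 on B, 76.4 on E and 209 on F. The scaled values of G left out its marked spots but kept 218 as the scale, and the part this has in its levels was not tested. The exposed adult arrays had 1 or 2 probes at their lowest value, whereas on acetone G 2966 probes shared the lowest value of the array, -5.88, and on acetone F 1280 probes shared a lowest value of -6.67. Such shared lowest values have no order among themselves. In juveniles NP60 A and acetone D also had a lowest value shared by 613 and 1050 probes, of which 2 and 0 belonged to the 80.

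In exposed adults the 80 probes had a median scaled log2 signal of -0.30, -0.77, -1.03 and -1.17 on FX40 arrays B, C, F and G, and of -0.65, -0.53, -0.88 and -0.58 on FV10 arrays A, B, E and H. It was -0.53, -0.47, -0.93 and -0.71 on NP20 arrays B, C, E and G, and -1.04, -0.86, -0.55 and -1.14 on NP60 arrays A, C, F and H. In acetone adults it was -1.61 on B, -2.51 on E, -1.78 on F and -4.16 on G. All 16 exposed medians lay above all 4 acetone medians, as the choice of the probes favours. The 4 acetone medians themselves spanned a wider range than the 16 exposed ones. The group means of these medians were -0.82 ± 0.38 (FX40), -0.66 ± 0.16 (FV10), -0.66 ± 0.21 (NP20) and -0.90 ± 0.26 (NP60), against -2.51 ± 1.16 in acetone adults (SD, n = 4 each).

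**Figure D1:**
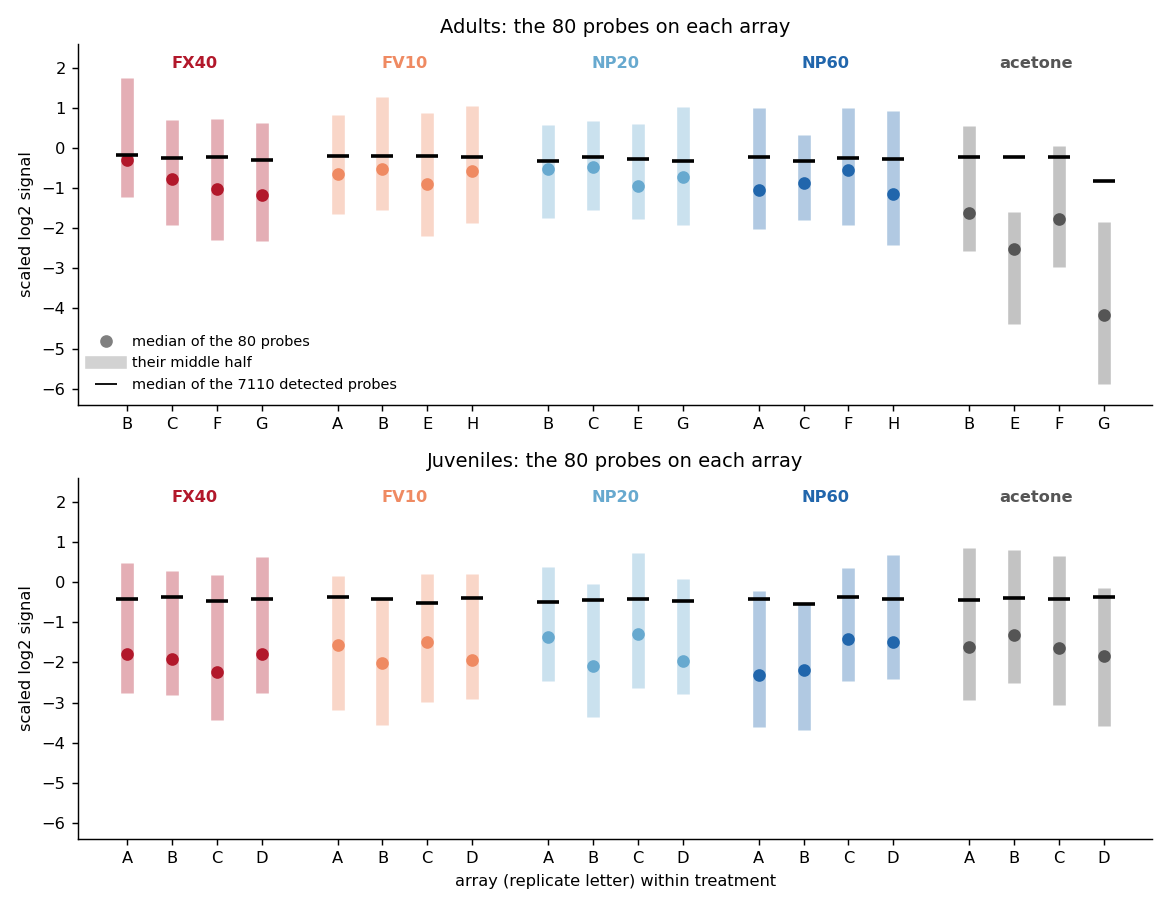
Scaled log2 signal of the 80 probes on each array (vertical axis), by treatment and replicate letter (horizontal axis), in adults above and juveniles below. Points are medians, bars span the 25th to 75th percentiles over the 80 probes, and black dashes are medians of the 7110 detected probes. In adults the exposed medians run from -1.17 to -0.30, above the acetone medians of -4.16 on G to -1.61 on B. In juveniles exposed medians (-2.31 to -1.28) and acetone medians (-1.83 to -1.32) overlap.

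Taken one by one, the acetone arrays contributed unequally to the difference. Array G was the lowest of the 4 for 37 of the 80 probes, E for 31, F for 12 and B for 0. Array B was the highest for 39, F for 19, E for 14 and G for 8. The lowest exposed group mean exceeded the value on acetone E by a median of 1.64 and that on acetone G by 2.24. The corresponding median was 0.54 for acetone F and 0.30 for acetone B. Against F alone, 27 of the 80 probes differed by at least 1, and against B alone 10 did, while 53 did so against E and 62 against G. With the mean of B and F as the acetone value, 24 probes kept a difference of at least 1, and with the mean of E and G 71 did. Over the 7110 detected probes these single-array medians lay between -0.41 and -0.26. Of the detected probes, 1.69% differed by at least 1 against B, 4.56% against E, 3.97% against F and 9.93% against G. With the mean of B and F this share was 1.49%, and with the mean of E and G 4.94%.

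The background calls showed the same split between acetone arrays. Of the 80 probes, 36 were well above background on acetone E and 41 on G, against 77 on B and 72 on F. The 7110 detected probes were well above background at 92.9% on E, 92.9% on G, 99.5% on B and 99.7% on F. Only 21 of the 80 (26.3%) were well above background on all 4 acetone arrays, against 88.2% of the detected probes, and the other counts were 31 on 3 arrays, 23 on 2, 3 on 1 and 2 on none. The shared lowest value of G was held by 18 of the 80 (22.5%), against 1.67% of the detected probes, and that of F by 2. Together 20 of the 80 had such a value on F or G. The choice favoured low acetone values on probes detected in every exposed adult, so nothing is read from these counts against the shares of detected probes. The outlier mark on G fell on 13 of the 80 (16.3%), close to the 17.8% of the detected probes. None of the 80 was saturated on any array. The part that brightness, the shared lowest values and the background status of E and G have in the adult difference was not tested.

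DM04631P2 had the largest choice value, 2.54. It measured -0.50, -0.92, -1.25 and -1.75 in FX40 adults B, C, F and G, -0.39, -1.20, -1.04 and -0.32 in FV10 adults A, B, E and H, -2.83, 0.03, -1.09 and -1.17 in NP20 adults B, C, E and G, and -0.97, -0.96, -1.65 and -1.49 in NP60 adults A, C, F and H. In acetone adults it measured -2.02 on B, -4.68 on E, -2.65 on F and -5.88 on G. Arrays E and G were not well above background, and G sat at its shared lowest value. The exposed and acetone values overlapped through NP20 B, which lay below acetone B and F.

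DM10864P1 was next, with a choice value of 2.16. Its exposed values were 1.56, 0.29, 0.26 and -1.17 in FX40 (B, C, F, G), 0.44, 0.42, -0.31 and -0.68 in FV10 (A, B, E, H), -0.54, 0.68, -0.16 and 0.98 in NP20 (B, C, E, G), and 0.10, -0.17, 0.74 and -0.25 in NP60 (A, C, F, H). Its acetone values were 0.02 on B, -1.63 on E, -1.26 on F and -5.88 on G, where it stood at the shared lowest value. Acetone B lay within the exposed range and E, F and G below it, and the choice value without acetone G was 0.93.

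DM09345P2, with a choice value of 2.10, was one of the brighter of the 80. It measured 5.18, 3.71, 5.14 and 4.29 in FX40 adults, 5.00, 5.03, 4.89 and 4.48 in FV10 adults, 3.98, 3.90 and 4.55 on NP20 arrays C, E and G, and 4.06, 3.31, 4.68 and 3.84 in NP60 adults, in the same array order. The acetone values were 4.60 on B, 0.85 on E and 4.54 on F. The spots on NP20 B and acetone G carried an outlier mark and were left out of these values, although the choice used them. Acetone B and F lay inside the exposed range, and E alone lay below it. The choice value fell to 0.56 without acetone G.

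DM03508P3, with a choice value of 1.97, measured -0.07, -0.11, -1.81 and -0.02 in FX40, -0.60, -0.98, -0.52 and -0.22 in FV10, -0.34, -0.06, 0.14 and -0.45 in NP20, and -1.33, -0.06, -1.16 and 1.08 in NP60 adults. It measured -3.53 on acetone B, -3.69 on E, -1.83 on F and -1.16 on G, so that G was here the highest of the 4. FX40 F and NP60 A lay below acetone G, and NP60 F was level with it. The lowest acetone array in the choice was thus E for this probe and G for the other 3.

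**Figure D2:**
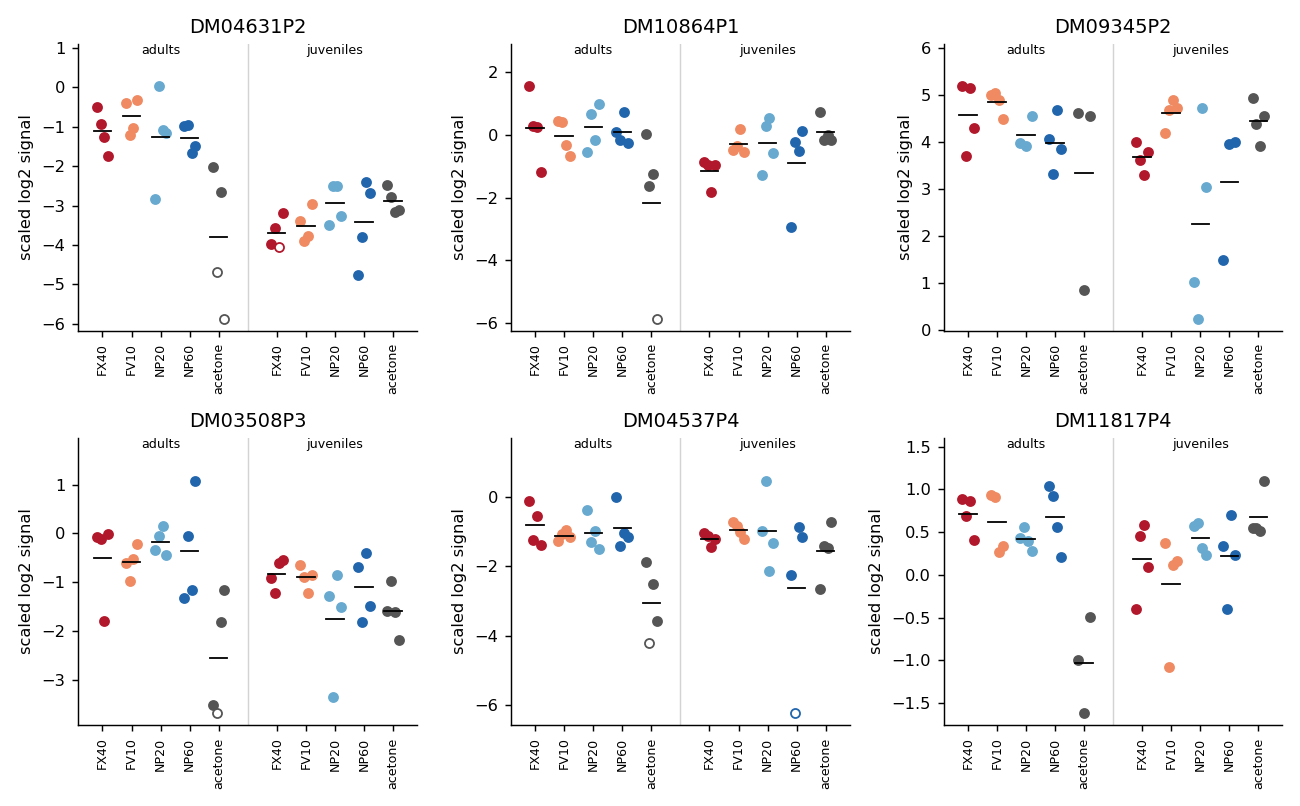
Scaled log2 signal (vertical axis) of 6 of the 80 probes on each array, in adults on the left and juveniles on the right of each panel, by treatment. Points are arrays, open where the probe was not well above background, and lines are group means. DM11817P4 and DM04537P4 have every exposed adult value above every measured adult acetone value, while the other 4 probes overlap.

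DM04537P4 (choice value 1.93) and DM11817P4 (1.44) stood apart from these in that the groups did not overlap. DM04537P4 measured -0.10, -1.23, -0.54 and -1.38 in FX40 adults, -1.28, -1.05, -0.96 and -1.16 in FV10 adults, -0.38, -1.29, -0.98 and -1.49 in NP20 adults, and 0.00, -1.42, -1.04 and -1.16 in NP60 adults, against -1.87 on acetone B, -4.22 on E, -2.52 on F and -3.58 on G. All 16 exposed values lay above the highest acetone value, and acetone E was not well above background. The group means were -0.81 ± 0.60 (FX40), -1.11 ± 0.14 (FV10), -1.04 ± 0.49 (NP20) and -0.90 ± 0.62 (NP60), against -3.05 ± 1.05 in acetone (SD, n = 4 each).

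DM11817P4 measured 0.89, 0.69, 0.86 and 0.41 in FX40 adults, 0.93, 0.92, 0.27 and 0.33 in FV10 adults, 0.43, 0.55, 0.40 and 0.28 in NP20 adults, and 1.04, 0.92, 0.56 and 0.21 in NP60 adults, against -0.99 on acetone B, -1.62 on E and -0.49 on F. Its spot on acetone G carried an outlier mark. It was well above background on all 4 acetone arrays, and the gap of 0.70 between the lowest exposed and the highest acetone value was the widest among the 80. The exposed means exceeded the acetone mean by 1.75 (FX40), 1.65 (FV10), 1.45 (NP20) and 1.72 (NP60), which is 3.35-fold, 3.13-fold, 2.73-fold and 3.28-fold.

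DM00294P3, proposed as a further example of such probes, ranked 105th with a choice value of 0.93 and is therefore not among the 80. It measured -0.29, -1.19, -0.88 and -0.87 in FX40 adults, -1.42, -1.35, -0.65 and -0.88 in FV10 adults, -0.94, -1.26, -0.98 and -1.04 in NP20 adults, and -1.50, -1.10, -1.25 and -1.45 in NP60 adults, against -2.07, -1.82, -2.69 and -2.45 on acetone B, E, F and G. All 4 acetone values were close together and below every exposed value. Its choice value was smaller than those of the 80. The difference did not rest on a single acetone array, since the choice value ran from 0.79 to 1.08 with 1 acetone array left out.

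Such separation was uncommon among the 80. With values on all 20 adult arrays, 3 of 66 probes had every exposed value above every acetone value, against 0.136% of detected probes, a comparison from which nothing is read since the same arrays made the choice. On the arrays with values, 5 of the 80 did so: DM11817P4, DM04537P4, DM10427P3, DM10743P3 and DM01194P3, the last named after its values were seen. On that basis 0.394% of detected probes did so, and again nothing is read from the comparison. Taken by treatment, 14 of 66 probes in FX40, 22 of 67 in FV10, 18 of 66 in NP20 and 15 of 67 in NP60 had all 4 exposed values above all 4 acetone values. The shares among detected probes were 2.72% (FX40), 2.9% (FV10), 2.17% (NP20) and 1.42% (NP60). Over the 80, the lowest exposed value minus the highest acetone value had a median of -1.02.

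The brightest of the 80 were DM00023P4 and DM10743P3. DM00023P4 averaged 6.33 ± 0.92 (FX40), 6.43 ± 0.57 (FV10), 6.31 ± 0.64 (NP20) and 6.47 ± 0.34 (NP60) (SD, n = 4 each), against 5.85, 5.15 and 4.31 on acetone B, E and F. Its lowest exposed value was 5.08 on FX40 G, below acetone B and E. DM10743P3 averaged 4.86 ± 0.63 (FX40), 4.63 ± 0.38 (FV10), 4.77 ± 0.75 (NP20) and 4.71 ± 0.41 (NP60) (SD, n = 4 each), against 3.72, 4.05 and 3.48 on acetone B, E and F. Its groups did not overlap. Both spots on acetone G carried an outlier mark, so acetone has 3 values for each.

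The dimmest were DM10427P3 and DM08748P3. DM10427P3 ran from -4.25 on FX40 F to 0.79 on NP20 B in exposed adults, against -4.43, -5.57, -4.56 and -4.51 on acetone B, E, F and G, on none of which it was well above background. For a cautious comparison its acetone mean of -4.77 was raised to -4.39, based on the weakest signals still well above background on those arrays. Against -4.39 it was 1.69-fold higher in FX40, 2.04-fold in FV10, 3.26-fold in NP20 and 1.82-fold in NP60 adults. Such folds are not strict lower limits, since a probe not well above background can lie higher, as DM01849P2 did at -2.42 on acetone E. The NP20 value rests on array B at 0.79, against -3.45, -4.00 and -4.10 on C, E and G. DM10983P2, named after its values were seen, was the other probe not well above background on any of the 4 acetone arrays. Against an acetone mean raised in the same way to -4.38, it was 1.70-fold higher in FX40, 2.56-fold in FV10, 2.51-fold in NP20 and 3.20-fold in NP60. DM08748P3 ran from -4.59 on NP20 G to -2.58 on FX40 F in exposed adults, against -4.19, -5.24, -3.70 and -5.88 on acetone B, E, F and G, so that the groups overlapped. Of the acetone arrays only F was well above background for it.

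Choice values at the limit of the list were close on both sides of it. DM04989P1 (1.012) and DM08804P3 (1.008) were the last inside, and DM01418P1 (1.006) and DM07633P3 (1.004) the first outside. DM04989P1 ran from -3.11 to -0.69 in exposed adults, against -2.56, -2.08 and -2.31 on acetone B, E and F, within that range, and -5.88 on G. DM08804P3 ran from 1.26 to 5.00 in exposed adults, against 3.56, 1.24 and 2.90 on acetone B, E and F, and its exposed minus acetone differences were 0.77 (FX40), 0.47 (FV10), 0.93 (NP20) and 0.36 (NP60) once the marked spot on G was left out. DM01418P1 ran from -2.81 to -1.11 in exposed adults, against -2.58, -4.43, -1.50 and -2.76 on acetone B, E, F and G, of which only E lay outside that range.

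The choice was repeated without each acetone array in turn, so that the array left out could be read independently of it on the acetone side. Without B, 66 of the 80 probes were chosen again, without E 44, without F 54 and without G 33. On the arrays used, the newly chosen 80 exceeded acetone by a median of 1.88 without B, 1.62 without E, 1.89 without F and 1.57 without G. On the acetone array left out, the same probes in exposed adults exceeded acetone by a median of 0.27 on B, 0.25 on E, 0.22 on F and -0.02 on G. The medians over all detected probes were -0.04 on B, -0.03 on E, -0.17 on F and 0.00 on G. In number, 53 of 80 newly chosen probes were higher in the exposed adults than on acetone B, 55 than on E, 48 than on F and 38 than on G. The shares over all detected probes were 46.8% on B, 48.2% on E, 39.6% on F and 49.7% on G. With both E and G left out, 17 of the 80 were chosen again, and the difference was 1.72 against the arrays used, 0.39 against E and -0.05 against G.

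Without 1 exposed array, between 58 (FX40 F) and 77 of the 80 were chosen again, and the array left out still exceeded the acetone mean by a median of 0.85 (FX40 F) to 2.03 (FX40 B). That difference is still taken against the 4 acetone arrays that made the choice. Against the 1 acetone array left out, the difference was between -0.02 and 0.27.

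**Figure D3:**
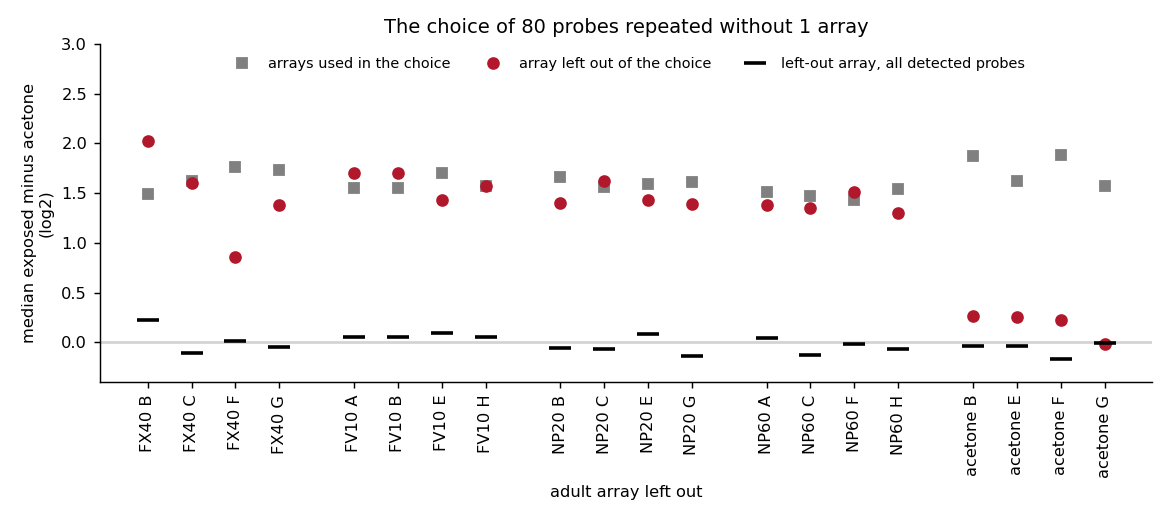
Median log2 difference, exposed minus acetone, of the 80 probes chosen without the array named on the horizontal axis. Squares use the arrays that made the choice, circles use the array left out, and dashes are the left-out array over all detected probes. With an exposed array left out the circles stay between 0.85 and 2.03, and with an acetone array left out they lie between -0.02 and 0.27.

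Each of the 7 slides held several arrays, and 9 pairs of an exposed and an acetone adult array shared a slide. On slide 1, NP20 B exceeded acetone B by a median of 0.84 over the 80 probes. On slide 3, with acetone F, the medians were 0.63 for FX40 G, 0.87 for FV10 H, 0.93 for NP20 G and 0.86 for NP60 A. On slide 7, with acetone E, they were 1.68 for FV10 E and 1.51 for NP60 H, and on slide 4, with acetone G, 2.61 for FX40 F and 2.80 for NP20 C. All 9 were above 0, as the choice favours, and their sizes followed the acetone array. Over the detected probes the 9 medians ran from -0.30 (NP20 G) to 0.07 (FV10 E), with -0.01 (FX40 F) and -0.11 (NP20 C) on slide 4.

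Among the exposed adults no treatment was the highest or the lowest throughout. The lowest of the 4 exposed group means was FX40 for 19 probes, FV10 for 16, NP20 for 22 and NP60 for 23. The highest was FX40 for 30 probes, FV10 for 27, NP20 for 19 and NP60 for 4. The spread between the highest and the lowest group mean had a median of 0.58, against 0.51 over detected probes. Against acetone, with the 4 acetone arrays shared by all comparisons, the median difference was 1.53 (FX40), 1.53 (FV10), 1.55 (NP20) and 1.40 (NP60). All tested probes had medians of 0.05, 0.09, 0.02 and 0.00 in the same order.

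Differences between exposed groups were fitted with limma on all 20 adult arrays, the Benjamini-Hochberg adjustment taking in every tested probe. For the 80 probes these fits are a description, since the choice used the same exposed values through the lowest of the 4 means, which favours groups that lie close together. The fits also drew their spread in part from the acetone arrays, on which the choice favoured a wide spread. Between FX40 and FV10, which differ in dose as well as compound, 0 of the 80 probes passed an adjusted p of 0.05, as did 0% of 12546 probes. At an unadjusted p of 0.05, 1 of the 80 passed, against 8.15% of all tested probes. Between NP60 and NP20, 0 of the 80 and 0% of 12547 probes passed, and at an unadjusted p 0 of the 80 did, against 3.93%. A test for any difference among the 4 exposed groups passed 0 of the 80 and 0% of probes, with 0 of the 80 at an unadjusted p, against 6.13%. The choice favours such low counts, and nothing is read from them. The median difference was -0.03 for FX40 minus FV10 and -0.11 for NP60 minus NP20.

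The juvenile arrays took no part in the choice. On them the 80 probes did not stand higher in the exposed groups. The median of the 80 averaged -1.93 ± 0.21 (FX40), -1.76 ± 0.27 (FV10), -1.68 ± 0.41 (NP20) and -1.85 ± 0.46 (NP60), against -1.60 ± 0.21 in acetone juveniles (SD, n = 4 each). By array, it was -1.78, -1.90, -2.23 and -1.79 in FX40 juveniles A to D, -1.57, -2.02, -1.48 and -1.95 in FV10, -1.37, -2.10, -1.28 and -1.96 in NP20, and -2.31, -2.18, -1.43 and -1.49 in NP60, against -1.62, -1.32, -1.63 and -1.83 in acetone juveniles A to D. Every exposed group overlapped the acetone group in this median. Only NP20 C lay above all 4 acetone arrays, and 8 of the 16 exposed arrays lay below all 4.

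Probe by probe, the difference from acetone in juveniles had a median of -0.13 (FX40), -0.10 (FV10), -0.06 (NP20) and -0.16 (NP60), against 0.05, 0.20, 0.01 and 0.05 over 12880 tested probes. Over 7101 detected probes, the set the 80 came from, the medians were 0.01, 0.00, -0.07 and -0.02 in the same order. Against these the 80 were not lower in NP20. The 4 comparisons share the same 4 acetone arrays. The difference was above 0 for 35 of the 80 (FX40), 31 (FV10), 35 (NP20) and 34 (NP60), against 54.6%, 59.8%, 50.8% and 55.1% of all tested probes in the same order. The 80 had 20 members above acetone in none of the 4 juvenile groups, 20 in 1, 13 in 2, 19 in 3 and 8 in all 4. As shares these were 25%, 25%, 16.3%, 23.8% and 10.0% of the 80, against 22.8%, 19.7%, 20.2%, 19.6% and 17.6% of detected probes in the same order. By array values, 1 of 77 probes in FX40 had all 4 exposed juveniles above all 4 acetone juveniles (3.9% of detected probes) and 8 had all 4 below (2.54%). In FV10 1 of 79 lay above (6.05%) and 5 below (8.53%), in NP20 0 of 78 above (1.06%) and 0 below (2.67%), and in NP60 1 of 78 above (1.29%) and 2 below (2.67%). The 8 in FX40, 10.4% of 77, exceeded the share of detected probes, and this difference in shares was not tested. The 95% interval of a probe's difference reached a median of 1.15 to either side in FX40 and 1.13 in the other 3 comparisons. It lay wholly below 1, a 2-fold rise, for 37 of the 80 (FX40), 43 (FV10), 37 (NP20) and 43 (NP60). These counts concern single probes and are not set beside a share of all tested probes.

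**Figure D4:**
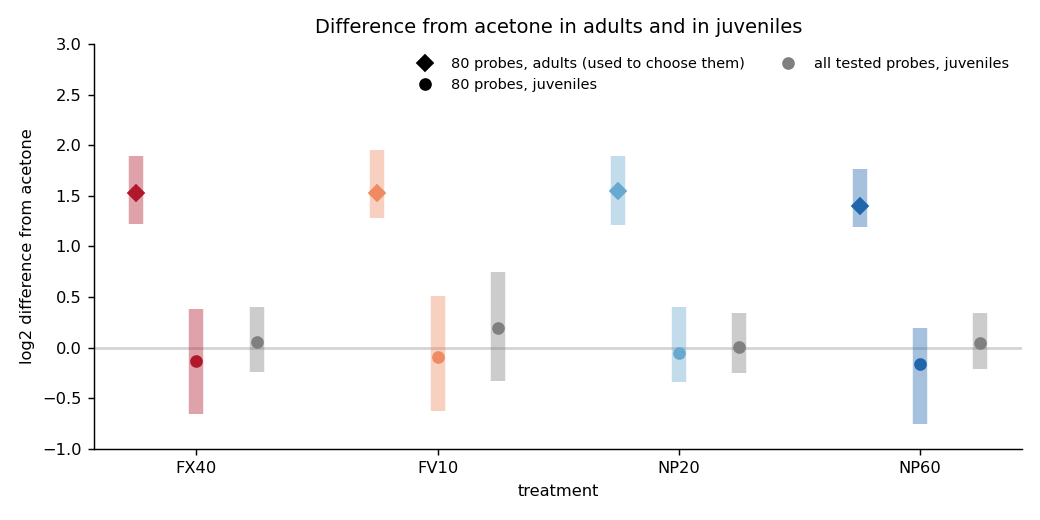
Log2 difference from acetone (vertical axis) by treatment (horizontal axis). Diamonds are medians of the 80 probes in adults, where the difference chose them, coloured circles their medians in juveniles, and grey circles medians of all tested probes in juveniles. Bars span the 25th to 75th percentiles over probes. Adult medians run from 1.40 to 1.55 and juvenile medians from -0.16 to -0.06.

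Tested with limma in juveniles, all 80 probes could be fitted. In FX40, 0 of the 80 passed an adjusted p of 0.05, against 0.00776% of all tested probes. In NP20 and in NP60, 0 of the 80 and 0% of tested probes passed. At an unadjusted p of 0.05, 7 of the 80 passed in FX40 against 8.42% of tested probes, 5 in NP20 against 5.97%, and 9 in NP60 against 5.4%. In FV10, 6 of the 80 (7.5%) passed, against 7.92% of tested probes, and 12 (15.0%) at an unadjusted p, against 26.5%. Of the 6, 2 rose, against 5.25% of tested probes, and 4 fell, against 2.67%, so that the 4 that fell went opposite to their adult difference. The share of the 80 that passed was close to that among all probes.

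The 4 of these 6 with the largest changes included 3 that fell. DM14198P1 measured -1.74, -2.50, -1.79 and -0.30 in FV10 juveniles A to D, against 2.96, 2.84, 3.32 and 0.67 in acetone juveniles A to D. All 4 FV10 values lay below all 4 acetone values, and the difference was -4.03 ± 0.95 (SE, adjusted p = 0.024 by limma). In adults this probe ranged from -0.87 to 5.55 on exposed arrays and from -2.38 to 4.68 on acetone arrays, so the ranges overlapped.

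DM11322P1 measured -6.68, -4.45, -3.37 and -3.58 in FV10 juveniles, against -2.16, -2.42, -2.07 and -1.58 in acetone juveniles. The groups did not overlap, array A was not well above background, and the difference was -2.46 ± 0.51 (SE, adjusted p = 0.017 by limma). DM02393P2 measured -6.31, -4.38, -2.91 and -3.75 in FV10 juveniles, of which A and B were not well above background, against -2.39, -2.59, -2.51 and -2.49 in acetone juveniles, a difference of -1.84 ± 0.54 (SE, adjusted p = 0.045 by limma). Its groups did not overlap either. On adult acetone arrays DM11322P1 lay within its exposed range on B, E and F, and DM02393P2 on B and F, and both stood at the shared lowest value on G.

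DM10593P2 rose. It measured 4.62, 5.89 and 4.27 in FV10 juveniles A, B and D, against 3.39, 3.77, 3.27 and 2.18 in acetone juveniles, without overlap and with a difference of 1.78 ± 0.53 (SE, adjusted p = 0.048 by limma). FV10 C carried an outlier mark and was left out. In adults its choice value of 1.24 rested on 1 acetone array: exposed values ran from 2.08 to 5.56, against 4.06 on acetone B, -3.06 on F and 4.16 on G. The count of 6 depended on single juvenile arrays: it was 0 without FV10 A or without FV10 B, 1 without acetone A or without acetone C, 2 without acetone D and 11 without FV10 C. It was also 0 with slide as a random block. These counts are not set beside the share of all tested probes that passed in the same fits. Whether they changed more than that share was not tested.

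Further juvenile differences did not pass the adjustment. DM03188P3, the probe with DM02478P1 of the largest mean juvenile rise, measured -1.82, -3.61, -3.08 and -1.66 in FX40, -1.83, -2.77, -1.70 and -2.12 in FV10, -1.43, -3.19, -1.95 and -1.44 in NP20, and -2.69, -2.87, -1.10 and -1.61 in NP60, against -3.33, -2.99, -2.71 and -3.41 in acetone juveniles. Its differences were 0.57 (FX40), 1.01 (FV10), 1.11 (NP20) and 1.04 (NP60), with adjusted p from 0.201 to 0.914 by limma. The acetone values overlapped those of every exposed group. DM02478P1 measured 1.36, 0.12, 0.44 and 0.65 in FX40 juveniles, against 0.69, -1.14, -0.35 and -6.56 in acetone juveniles A to D, a difference of 2.48 (adjusted p = 0.538 by limma). Acetone D alone stood far below and was not well above background.

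DM01849P2 and DM05888P1 had the largest mean juvenile falls. DM01849P2 measured 0.24, 1.21, 0.93 and 1.46 in FX40 juveniles, against 4.81, 4.20, 4.09 and 4.05 in acetone juveniles, with no overlap and a difference of -3.33 ± 0.81 (SE, adjusted p = 0.234 by limma). In FV10 juveniles it measured 4.81, 4.61, 4.21 and 4.38, within or near the acetone range. DM05888P1 measured -1.35, -0.67, -2.14 and 2.78 in NP60 juveniles, against 2.80, 2.98, 2.22 and 2.89 in acetone juveniles, a difference of -3.07 ± 0.99 (SE, adjusted p = 0.671 by limma). In adults both had higher means in every exposed group.

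DM04537P4 and DM11817P4, which separated the adult groups, did not separate juvenile groups in the same direction. DM04537P4 averaged -1.20 ± 0.17 (FX40), -0.94 ± 0.21 (FV10), -0.99 ± 1.10 (NP20) and -2.62 ± 2.49 (NP60), against -1.57 ± 0.81 in acetone juveniles (SD, n = 4 each). Its adjusted p ran from 0.669 to 0.989 by limma. DM11817P4 averaged 0.18 ± 0.44 (FX40), -0.11 ± 0.66 (FV10), 0.43 ± 0.18 (NP20) and 0.22 ± 0.45 (NP60), against 0.68 ± 0.28 in acetone juveniles (SD, n = 4 each), a lower mean in every exposed group. Its adjusted p ran from 0.127 to 0.973 by limma. In FV10 juveniles A to D, DM11817P4 measured 0.38, -1.08, 0.12 and 0.16. All 4 lay below the acetone juvenile values of 0.54, 0.55, 0.51 and 1.10, opposite to the adult direction. Of the first 4 probes by choice value, DM04631P2 and DM10864P1 had lower means than acetone in all 4 juvenile groups, DM09345P2 in 3 and DM03508P3 in 1, and none passed the adjustment.

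Within shared slides the juvenile differences of the 80 had no common direction. They were -0.67 for FV10 B and -0.38 for NP60 B against acetone A, -0.64 for FX40 C against acetone B, 0.32 for FX40 B and -0.52 for NP60 A against acetone C, and 0.36 for FV10 C and -0.31 for NP20 B against acetone D. In 2 of these 7 pairs the exposed array was the higher one.

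Between stages the 80 probes stood at intermediate levels in juveniles. Exposed adults exceeded exposed juveniles by a median of 0.91, against 0.18 over detected probes. Acetone juveniles exceeded acetone adults by a median of 0.73, against -0.22 over detected probes, and 64 of the 80 were higher in acetone juveniles than in acetone adults. In 23 of the 80 the acetone juvenile mean was above the lowest exposed adult mean. The choice used both adult sides, so these are descriptions.

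The SD between arrays of 1 group was larger for the 80 probes than for detected probes at the median. In juvenile groups, which were not used, the SD between arrays had a median of 0.80 within exposed groups, against 0.48 over detected probes, and of 0.66 within acetone, against 0.37. In adults it was 0.68 within exposed groups, against 0.46, and 1.59 within acetone, against 0.43, the last being part of what the choice selected. In juveniles 47 of the 80 (58.8%) were well above background on all 20 arrays, against 86.9% of detected probes. The 80 were dimmer than detected probes in general, with a median exposed adult level of -0.82 against -0.24, and the part of their level in this spread was not tested.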

How the data were processed

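Per the file headers, the authors' scanner files hold spot intensity values from Agilent Feature Extraction 10.7.3.1. The deposited processed intensity was already background-subtracted. The authors' deposited series table is in log2 units. Its columns tracked quantile-normalized log2 signals centred per probe within a stage, with r of 0.980 to 1.00 for adult and 0.999 to 1.00 for juvenile arrays. Column medians lay between -0.0984 and 0.106 (adults) and between -0.0713 and 0.0931 (juveniles). Other steps behind it are not given in the sources consulted.

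Of 15744 spots, 15208 were non-control and held 14338 probes. Values were log2 processed signals scaled by each array's 75th percentile, without outlier-marked spots (kept in the choice of the 80), averaged over duplicate spots. Testing used limma 3.58.1 (R 4.3.3; lmFit and eBayes, the 5 groups of a stage in 1 fit, two-sided, Benjamini-Hochberg) for probes that at least 4 arrays of the fit marked well above background. The fit was tested on simulated data. Precision is limited by 4 arrays a group. The highest correlation between arrays was 0.967.

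The members and lists were chosen with earlier results of these data known. Named were the proposed example probes, the 4 largest choice values, the last 2 inside and first 2 outside, the 2 largest mean rises and falls in juveniles, the 2 highest and lowest levels, and up to 4 called per comparison. Same-letter correlations of deviations from the group means ran from -0.22 to 0.22 over 16 juvenile pairs and from -0.23 to 0.31 over 20 adult pairs. Of the comparisons with 3 or more shared letters, only adult FX40 with acetone had every one over 0.1 (B 0.29, F 0.20, G 0.31). With the replicate letter as a block its median difference was 1.56. Alternatives were quantile normalization, normexp background correction (offset 50), the deposited table, other scalings and filters, blocks for slide and replicate, brightness, array weights and leaving out arrays.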

Additional observations from a re-analysis of the deposited data

Results flagged for a closer look

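In a group of 4 arrays, a single array lay far from the other 3 in 9 of 217 groups examined, and chance alone gives such a case in about 1 of 20 groups. DM03508P3 was at -1.81 on adult FX40 F, and DM10427P3 at 0.79 on adult NP20 B. On adult acetone arrays DM04989P1 and DM11322P1 were at -5.88 on G, DM02478P1 at -6.67 on F and DM10427P3 at -5.57 on E. The values on G and F are the shared lowest values of those arrays. In juveniles DM10864P1 was at -1.82 and DM08748P3 at -6.27 on FX40 C, and DM11817P4 at 1.10 on acetone D.

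For some probes every array of an exposed adult group lay above the adult acetone mean while every array of the same treatment in juveniles lay below the juvenile acetone mean. The difference between stages was not tested, and the adult direction is fixed by the choice. The median of the 80 in FX40 differed from acetone by 1.70 in adults and -0.32 in juveniles. In FX40 the adult and juvenile differences were 1.75 and -0.50 for DM11817P4, 2.70 and -0.82 for DM04631P2, 2.42 and -1.26 for DM10864P1, 1.25 and -0.77 for DM09345P2, 0.76 (against its raised acetone mean of -4.39) and -0.27 for DM10427P3, and 1.80 and -0.83 for DM08748P3. In FV10 they were 1.65 and -0.78 for DM11817P4, 1.19 and -0.96 for DM00294P3, 3.07 and -0.63 for DM04631P2, 1.33 and -0.33 for DM00023P4, 1.54 and -0.78 for DM08748P3, 1.19 and -2.46 for DM11322P1, and 1.09 and -1.84 for DM02393P2. In NP20 they were 1.45 and -0.25 for DM11817P4, 1.09 and -0.28 for DM08748P3, and 1.50 and -0.26 for DM11322P1. In NP60 they were 0.93 and -0.21 for DM00294P3, 1.36 and -0.83 for DM00023P4, and 1.37 and -0.41 for DM08748P3. DM00294P3 is outside the 80, and its fall in FV10 juveniles passed the test (adjusted p = 0.024 by limma).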

How the results depend on the processing

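The choice of the 80 depended on the background treatment and on acetone E and G. Of the 80, 59 were chosen again after quantile normalization, 72 in the deposited table, 72 without outlier-marked spots, 65 with the percentile over unmarked spots, 21 with detection required on all 20 adult arrays, 19 with normexp and quantile normalization and 5 with normexp and the 75th percentile. A list of 40 kept 40, leaving out 1 array kept 33 to 77 (44 without acetone E, 33 without G), and leaving out both kept 17. Alternatives on unmarked spots, without E and G together, and on single probes were added after the data were seen.

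With normexp and the 75th percentile, the adult median difference was -0.12 (FX40), 0.0037 (FV10), -0.090 (NP20) and -0.34 (NP60), while all tested probes shifted to -0.94, -0.68, -0.58 and -0.78. Relative to those shifts the 80 stood higher, as their choice on the same adult arrays favours, and nothing is read from this. With normexp and quantile normalization it was 0.50, 0.49, 0.48 and 0.33 in the same order. It was 1.34 in FV10 with the percentile over unmarked spots, and 1.34 in NP20 with brightness as a covariate. Without 1 array it ran from 1.33 to 1.87 in FX40, 1.32 to 1.87 in FV10, 1.22 to 1.86 in NP20 and 1.06 to 1.73 in NP60.

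Single choice values turned negative with normexp and the 75th percentile: -0.44 for DM04537P4, -0.50 for DM00294P3, -0.45 for DM04631P2, -0.97 for DM04989P1, -0.42 for DM01418P1, -0.30 for DM03188P3, -0.83 for DM02478P1, -1.24 for DM10427P3, -0.95 for DM08748P3, -0.39 for DM11322P1 and -0.37 for DM02393P2. With normexp and quantile normalization they were -0.0063 for DM04989P1, -0.26 for DM08804P3 and -0.20 for DM02478P1. Without acetone F they were -0.37 for DM02478P1 and -0.59 for DM10593P2, and without acetone E -0.026 for DM14198P1. Without 1 acetone array these 3 ran from -0.37 to 1.89 (DM02478P1), -0.59 to 1.94 (DM10593P2) and -0.026 to 2.33 (DM14198P1). Over 23 named probes, the choice value changed by over 1.5 times in 35 of 138 alternatives of other processing and turned negative in 14. Without 1 acetone array it did so in 20 and 3 of 92. The cause was not tested.

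In juveniles, members passing in FV10 numbered 0 with normexp and the 75th percentile, 0 with only FV10 and acetone in the fit, 0 with brightness as a covariate, 0 with slides blocked, 2 with no filter, 2 with array weights, 3 with the replicate letter as a block, and 0 to 11 without 1 array. The block changed no other count. The FV10 counts are given without the share of all tested probes passing under the same alternative. They therefore do not show whether the members were less stable than other probes. DM14198P1 passed under 14 of 22 alternatives, DM11322P1 under 15 of 21, DM02393P2 under 7 of 21 and DM10593P2 under 7 of 22, each keeping its direction. In FX40, 1 member passed with only FX40 and acetone in the fit. Counts in NP20 and NP60 and between exposed adult groups stayed at 0 under the alternatives run and without 1 array. The juvenile median was -0.64 in FX40 and -0.49 in NP20 with normexp and the 75th percentile, and in FV10 -0.37 with quantile normalization and -0.37 in the deposited table. Without 1 array it ran from -0.24 to 0.06 in FX40, -0.27 to -0.07 in FV10, -0.14 to 0.01 in NP20 and -0.26 to 0.01 in NP60, and between adults from -0.22 to 0.15 for FX40 minus FV10 and -0.18 to -0.08 for NP60 minus NP20.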
